A study of Mus musculus with 10 samples.

Results

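A set of 8 genes of the CC chemokine system, 5 ligands (Ccl3, Ccl4, Ccl5, Ccl6 and Ccl9) and 3 receptors (Ccr1, Ccr2 and Ccr9), were followed in preleukemic stem and progenitor cells. They are 8 of the 25078 genes counted. They were chosen as CC chemokines and CC receptors of myeloid cells, and partly because Ccl9 differed between the genotypes of these same mice in a fit that treated equally numbered mice as pairs, so genotype differences of the 8 genes are given below as a description, without p-values. RNA was sequenced from bone marrow LSK cells (lineage-negative, Sca-1-positive and c-Kit-positive), the fraction in which blood stem cells and multipotent progenitors are found. CM mice (Cbfb56M/+/Mx1-Cre, n = 5) express the fusion gene Cbfb-MYH11 of inv(16) acute myeloid leukemia. CM/miR-126Δ/Δ mice (Cbfb56M/+/miR-126flox/flox/Mx1-Cre, n = 5) express the same fusion and have lost both floxed copies of miR-126. All 10 mice, of both sexes and backcrossed to C57BL/6, received poly(I:C), which switches on the interferon-responsive Mx1-Cre, and were analysed 6 weeks later, before leukemia. Both groups therefore carry the fusion and the interferon stimulus, no group without the fusion was analysed here, and Mx1-Cre also acts outside the blood system.

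Chemokines are small secreted proteins that guide the migration of leukocytes, and CC chemokines are those whose first conserved cysteines are adjacent. They act on receptors that couple to inhibitory G proteins, and one receptor often binds several ligands. In bone marrow, stem cells are held mainly by a CXC chemokine, Cxcl12, through Cxcr4, whereas CC chemokines are best known from monocytes, macrophages, granulocytes and lymphocytes. Ccl3, Ccl4 and Ccl5 are inflammatory ligands, and Ccl3 is also known for its action on stem cell quiescence and for its production by leukemic cells. Ccl6 and Ccl9 are ligands found in rodent myeloid cells that bind Ccr1. Ccr1 is a receptor for Ccl3, Ccl5, Ccl6 and Ccl9, Ccr2 is the Ccl2 receptor by which monocytes leave the marrow, and Ccr9 is the Ccl25 receptor of thymus-seeding progenitors and gut-homing lymphocytes.

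Counts on genes totalled 23649233 to 33202086 per library in CM mice and 24141663 to 26615091 in CM/miR-126Δ/Δ mice, so that 3 counts, taken as the limit of detection, stood for 0.0904 to 0.127 CPM (counts scaled to a common total of the library). The microRNA precursor Mir126a was counted 4, 5, 0, 2 and 3 times in the numbered CM mice and 0 times in all 5 CM/miR-126Δ/Δ mice, near the limit of these long-RNA libraries. Kit, a gene of the sorting gate, and Cd34, which was not in the gate, were at 859 ± 68.5 and 943 ± 52.7 CPM in CM (SD, n = 5). Ly6a, the gene of Sca-1, was at 43.6 to 70.3 CPM in CM and at 51.1 to 67.4 CPM in CM/miR-126Δ/Δ. Neutrophil genes varied most among the markers of other cells, with summed levels of 6.27 to 190.6 CPM in CM against 6.66 to 404.7 in CM/miR-126Δ/Δ. In these bulk samples, fewer cells of a type and less RNA per cell cannot be told apart.

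All 5 ligand genes lie in 1 cluster of 138.9 kb on chromosome 11 (build mm10). From left to right these are Ccl5 (83525779 to 83530518), Ccl9 (83572917 to 83578636), Ccl6 (83587886 to 83593087) and Ccl3 (83647843 to 83649378) on the minus strand, and Ccl4 (83662584 to 83664683) on the plus strand. Ccl3 and Ccl4 are neighbours 13.2 kb apart, and Ccl9 and Ccl6 are 9.25 kb apart. The receptor genes lie within 341.9 kb of chromosome 9, with Ccr9 (123767211 to 123783457, plus strand) followed by Ccr1 (123962126 to 123968692, minus strand) and Ccr2 (124102183 to 124109140, plus strand). Ccl6 overlaps the opposite-strand transcript E230016K23Rik, which had 0 to 7 counts in any library against 72 to 734 for Ccl6. Whether counting used the strand is not given in the sources used here.

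The sequences shown are the deleted microRNA, because its seed pairs with sites in transcripts it represses, and 3 promoters that between them hold the RUNX, PU.1, AP-1 and NF-kB letters that were searched for. The mature miR-126a-3p (RefSeq, GRCm38.p6, chr2:26591402-26591423, plus strand) has its seed, bases 2 to 8, in capitals.
miR-126a-3p: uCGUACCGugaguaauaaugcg
The longest 3′ untranslated regions of the 8 genes, 199 to 2465 bases long (GENCODE M1 transcripts), held 0 complements of the seed, of either 6 or 7 bases. Of 19915 genes searched the same way, 2.95% held the 6-base site and 0.211% the 7-base site.

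The 250 bases before the RefSeq start were read for the 6 genes with an entry, Ccl3, Ccl6, Ccl9, Ccr1, Ccr2 and Ccr9, and searched on both strands. Printed below are Ccl3, Ccr1 and Ccl9, from 5′ to 3′ on the strand of the gene. Capitals in Ccl3 and Ccr1 mark the RUNX core TGTGGT, the letters bound by the partner of the CBFβ protein, and the PU.1 core GAGGAA, or their complements. Capitals in Ccl9 mark TGAATCA, a match to the searched AP-1 form TGANTCA, which leaves the middle base open, and a stretch of the NF-kB form.
Ccl3, chr11:83649379-83649628, minus strand: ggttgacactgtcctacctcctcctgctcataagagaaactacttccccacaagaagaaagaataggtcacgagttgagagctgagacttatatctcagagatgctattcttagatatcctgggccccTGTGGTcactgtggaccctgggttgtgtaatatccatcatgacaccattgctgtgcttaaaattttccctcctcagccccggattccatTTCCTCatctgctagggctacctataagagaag
Ccr1, chr9:123968693-123968942, minus strand: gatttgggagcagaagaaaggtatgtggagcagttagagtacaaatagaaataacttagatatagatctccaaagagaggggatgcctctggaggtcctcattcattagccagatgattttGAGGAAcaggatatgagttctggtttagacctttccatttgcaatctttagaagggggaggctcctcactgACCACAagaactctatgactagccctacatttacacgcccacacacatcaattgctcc
Ccl9, chr11:83578637-83578886, minus strand: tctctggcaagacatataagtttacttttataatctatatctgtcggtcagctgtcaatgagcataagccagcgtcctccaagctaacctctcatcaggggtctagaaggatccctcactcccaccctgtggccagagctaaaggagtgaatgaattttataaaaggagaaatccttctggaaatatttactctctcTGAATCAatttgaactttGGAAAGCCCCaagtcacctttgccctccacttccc
The RUNX core began 122 bases before the start of Ccl3 and 58 before that of Ccr1, in 2 of the 6 promoters, and in 14.0% of all 32851 promoters of this length. The PU.1 core was in the same 2 promoters and in 23.3% of all. The match of Ccl9 to this open AP-1 form began 53 bases before its start and the NF-kB form 35 bases before it, without overlap of the 2. These forms were in 6.75% and 1.41% of all promoters. The GATA form AGATAA was in Ccr2 alone among the 6 and in 9.99% of all promoters, while 0 of the 6 held the C/EBP form TTNNGCAA (9.56% of all) or the IRF form (2.98% of all). Such matches are letters only, and binding was not measured here.

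All 8 genes had counts in every library, from at least 16 counts for Ccl5 to at most 3751 for Ccl9. Ccl9 was the most abundant per length, with a median of 35.6 RPKM (CPM per kilobase of exon) over the 10 mice. Its mean of 34.7 RPKM was higher than that of 90.4% of the 18747 genes with a count. Ccl9 made up 47.1% ± 13.2 (SD, n = 10) of the summed RPKM of 22 CC ligands. Then came Ccl3 at 15.8, Ccr2 at 8.98, Ccl4 at 8.09, Ccl6 at 4.35, Ccl5 at 3.03, Ccr1 at 0.862 and Ccr9 at 0.554 median RPKM. Of 11 CC receptors, Ccr2 made up 65.7% ± 5.95 of the summed RPKM, Ccr1 6.17% ± 1.66 and Ccr9 3.52% ± 1.03 (SD, n = 10). Neighbours in this order were compared within libraries by a two-sided exact permutation test over 1024 sign changes, adjusted over 7 pairs. Ccl9 exceeded Ccl3 by 2.36-fold (mean log2 difference 1.24 ± 1.19, SD, n = 10; 9 of 10 mice; adjusted p = 0.0164). Ccl3 and Ccr2 did not differ beyond their spread (exact test, adjusted p = 0.226), nor did Ccr2 and Ccl4 (adjusted p = 0.33). Ccl3 and Ccl4, which are not neighbours in this order, were not compared by the test, and Ccl3 was above Ccl4 in 9 of 10 mice. Ccl4 exceeded Ccl6 by 1.65-fold (9 of 10 mice; exact test, adjusted p = 0.0164) and Ccl6 exceeded Ccl5 by 1.91-fold (10 of 10; adjusted p = 0.00684). Ccl5 exceeded Ccr1 by 2.97-fold (10 of 10; exact test, adjusted p = 0.00684), and Ccr1 exceeded Ccr9 by 1.74-fold (8 of 10; adjusted p = 0.0164). The smallest unadjusted p this test can give is 0.00195. The pairs and their direction were set by these same values. The test took libraries as independent, although equally numbered mice deviated together, so its p-values may be too small. Between the lowest and the highest mouse, Ccl3 spanned 15.8-fold in CPM and Ccl6 7.73-fold, whereas Ccl9 spanned 2.16-fold.

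**Figure D1:**
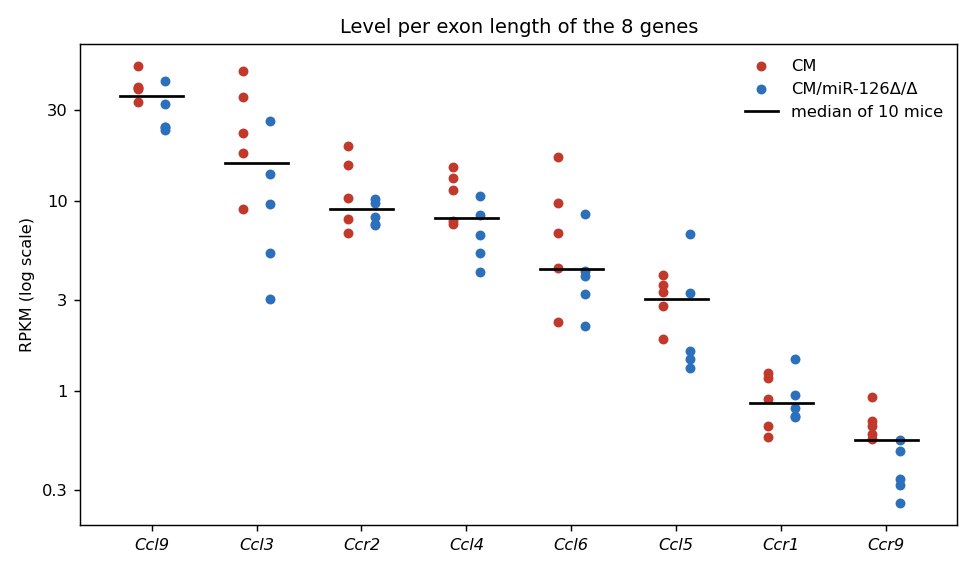
Level of each gene per exon length (RPKM, log scale), 1 point per mouse, red for CM and blue for CM/miR-126Δ/Δ, with a line at the median of the 10 mice. Ccl9 stands highest at 35.6 RPKM and Ccr9 lowest at 0.554, and the points of Ccl3 are the most widely spread.

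Levels in single mice are given next in CPM on TMM-scaled library sizes, with mice 1 to 5 in order, and each log2 fold change is CM/miR-126Δ/Δ against CM from edgeR with its SE. Ccl9 was at 98.8, 117, 154, 118 and 115 CPM in CM mice and at 73.5, 73.2, 128, 96.3 and 71.0 CPM in CM/miR-126Δ/Δ mice. Mouse 3 was the highest of each genotype, and the genotypes overlapped only through that of CM/miR-126Δ/Δ. The log2 fold change of Ccl9 was −0.45 (SE 0.155), or 1.36-fold lower in CM/miR-126Δ/Δ. With the replicate number as a block it was −0.47 (SE 0.0719), and Ccl9 was lower in the CM/miR-126Δ/Δ mouse in 5 of 5 equally numbered pairs. The ratio of the paired mice ran from 0.615 (mice 5) to 0.834 (mice 3).

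Ccl3 was at 14.1, 37.8, 7.16, 17.9 and 27.8 CPM in CM mice and at 10.9, 7.59, 4.18, 20.7 and 2.39 CPM in CM/miR-126Δ/Δ mice. CM mice 2 and 5 were the highest, CM/miR-126Δ/Δ mice 5 and 3 the lowest, and the groups overlapped. The log2 fold change of −1.19 (SE 0.495), 2.28-fold lower in CM/miR-126Δ/Δ, was the largest of the 8 and had the largest SE. Ccl4, the neighbour of Ccl3, was at 5.15, 9.91, 4.99, 7.49 and 8.72 CPM in CM mice and at 5.53, 4.36, 2.79, 7.01 and 3.50 CPM in CM/miR-126Δ/Δ mice. The groups overlapped, and the same CM mice, 2 and 5, stood highest and the same CM/miR-126Δ/Δ mice, 3 and 5, lowest. Its log2 fold change was −0.64 (SE 0.251), and −0.66 (SE 0.205) with the replicate block. Both genes were lower in the CM/miR-126Δ/Δ mouse in 4 of 5 pairs, with mice 4 the exception for Ccl3 and mice 1 for Ccl4.

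Ccl6 was at 6.39, 3.30, 9.66, 13.9 and 24.2 CPM in CM mice and at 5.79, 6.10, 3.13, 12.2 and 4.61 CPM in CM/miR-126Δ/Δ mice. CM mouse 5 was the highest and the groups overlapped widely. The log2 fold change of Ccl6 was −0.85 (SE 0.445), and −0.36 without CM mouse 5. The highest Ccl6 of each genotype was in the mouse with the most neutrophil RNA, CM mouse 5 and CM/miR-126Δ/Δ mouse 4. The 9 neutrophil markers summed to 6.27, 7.63, 43.2, 41.7 and 190.6 CPM in CM mice 1 to 5 and to 15.2, 31.8, 6.66, 404.7 and 10.4 CPM in CM/miR-126Δ/Δ mice 1 to 5. Within CM/miR-126Δ/Δ the mice had the same order in both, and in CM mice 1 and 2, and 3 and 4, changed places. None of these markers was at 0 in all libraries. Between genotypes the neutrophil sum was higher in CM/miR-126Δ/Δ mouse 4 than in CM mouse 5, whereas Ccl6 was lower. Lyz2, from the monocyte and macrophage list, had the same order of mice as Ccl6 in both genotypes. The sum of that list did not, being highest in mouse 3 of each genotype. The part of neutrophils, monocytes or macrophages in the Ccl6 values was not tested.

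Ccl5 was at 2.15, 0.991, 1.76, 1.92 and 1.49 CPM in CM mice and at 0.779, 1.74, 0.697, 3.52 and 0.865 CPM in CM/miR-126Δ/Δ mice. Mouse 4 of CM/miR-126Δ/Δ was the highest, 3 of the other 4 lay below every CM mouse, and the log2 fold change was −0.13 (SE 0.409). Without that mouse it was −0.69. Ccl5 is a product of T and NK cells, and the 10 measured markers of these cells summed to 39.9 to 72.3 CPM in CM against 45.0 to 71.2 in CM/miR-126Δ/Δ, most of it Nkg7. Cd3e, a defining T cell gene, was at 2.61 CPM in CM/miR-126Δ/Δ mouse 4, the highest of all, at 0 in mouse 5 and at 0.0871 CPM in mouse 3. In CM mice it was at 0.693 to 1.84 CPM, highest in mouse 3, whereas Ccl5 was highest in mouse 1. Other markers of the list did not all follow Cd3e. Among CM/miR-126Δ/Δ mice Nkg7 and Gzmb were also highest in mouse 4, but lowest in mouse 1, at 41.5 and 1.04 CPM. In mice 3 and 5 Nkg7 was at 46.3 and 48.7 CPM and Gzmb at 1.39 and 1.40 CPM. The part of T and NK cells in the Ccl5 values was not tested.

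Among the receptors, Ccr9 was at 2.45, 3.04, 4.09, 2.86 and 2.61 CPM in CM mice and at 1.52, 1.13, 2.13, 2.42 and 1.40 CPM in CM/miR-126Δ/Δ mice. It was the only one of the 8 genes whose groups did not overlap, by the narrow margin of 2.42 against 2.45 CPM. Its log2 fold change was −0.80 (SE 0.232), or 1.75-fold lower in CM/miR-126Δ/Δ, and it was lower in 5 of 5 pairs. Ccr9 was a rare transcript, with 28 to 100 counts per library.

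Ccr2 was at 24.3, 28.7, 69.1, 37.0 and 55.0 CPM in CM mice and at 29.4, 26.6, 35.1, 36.7 and 27.2 CPM in CM/miR-126Δ/Δ mice. CM mice 3 and 5 lay far above every CM/miR-126Δ/Δ mouse, CM mouse 4 just above the highest of them and CM mouse 1 below the lowest, with an SD of 18.8 CPM in CM around a mean of 42.8. The log2 fold change of Ccr2 was −0.46 (SE 0.232), and −0.21 without CM mouse 3. Ccr1, the receptor for 4 of the 5 ligands, was at 1.85, 1.62, 2.58, 3.49 and 3.30 CPM in CM mice and at 2.30, 2.06, 2.70, 4.16 and 2.10 CPM in CM/miR-126Δ/Δ mice. Its genotypes overlapped throughout, with a log2 fold change of 0.05 (SE 0.262), and mouse 4 was the highest of each. Ccr1 was higher in the CM/miR-126Δ/Δ mouse in 4 of 5 pairs.

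**Figure D2:**
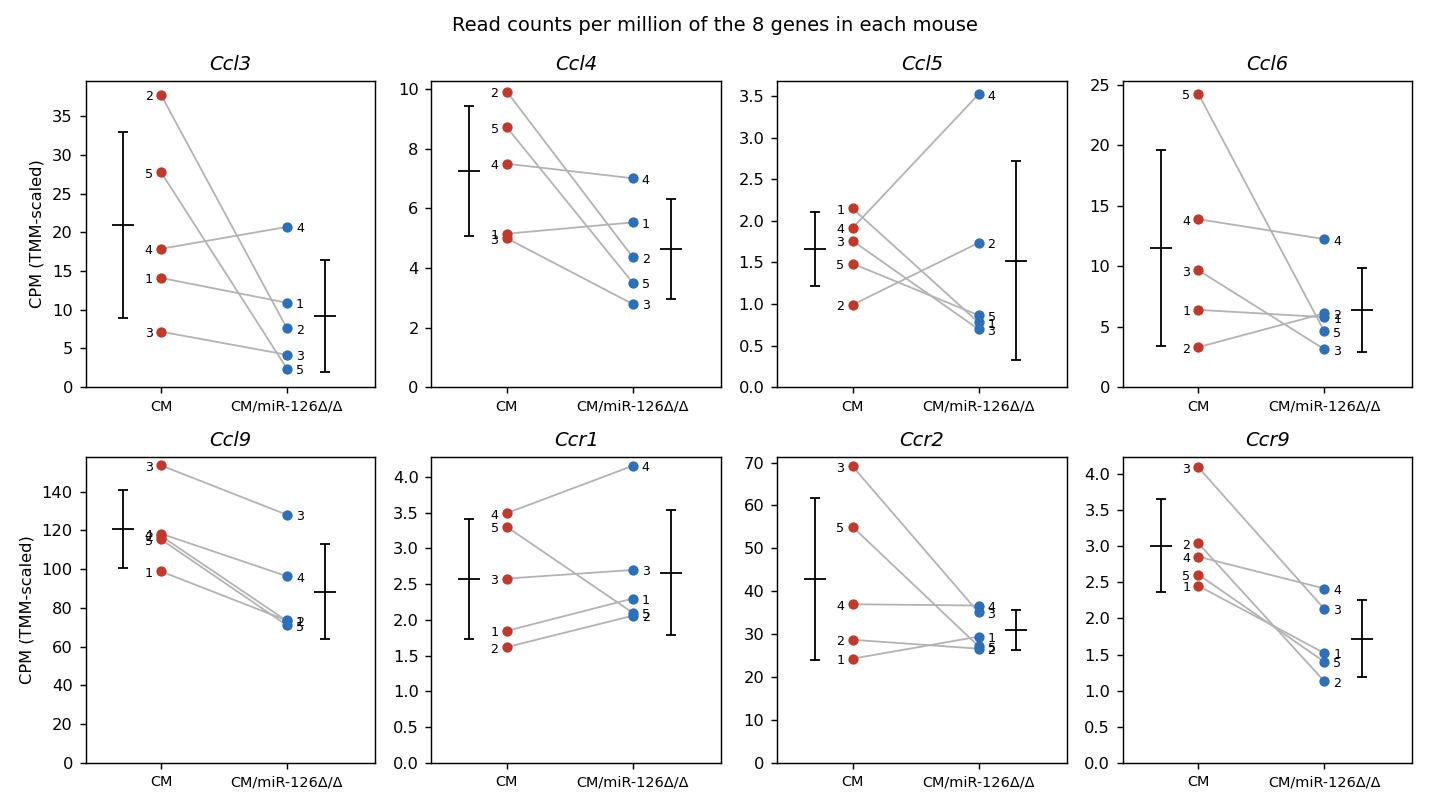
CPM of each gene in CM (red) and CM/miR-126Δ/Δ (blue) mice, with grey lines joining mice of the same number and black bars for the mean ± SD of 5 mice beside the points. All 5 lines slope down for Ccl9 and Ccr9, and the groups are apart only for Ccr9.

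Calls required a p no higher than 0.01 in the edgeR quasi-likelihood test, a fold change no lower than 1.5 and a mean of no less than 1 RPKM in either genotype. With genotype as the only term, 0 of the 8 genes were called, where edgeR called 0.096% of the 18747 genes tested lower and 0.192% higher in CM/miR-126Δ/Δ. DESeq2 also called 0 of the 8, and 64 genes in all. With the replicate block 1 of the 8 was called, Ccl4, lower, beside 0.261% of all genes lower and 0.352% higher. In that fit Ccl9 alone of the 8 had an adjusted p under 0.05, which helped to choose it, and 0.0267% of all genes did so with a lower level. Ccl9 was not called because its fold change was under 1.5, and Ccr1 and Ccr9 could not be, because their mean RPKM was under 1. The groups were apart with CM/miR-126Δ/Δ lower for 1 of the 8 genes (0.528% of all), and the CM/miR-126Δ/Δ mouse was lower in 5 of 5 pairs for 2 of the 8 (4.61% of all). The log2 fold change was below 0 for 7 of the 8 genes (52.6% of all), with a median of −0.55 against −0.01 over all genes. Single mice decided calls: without CM mouse 3 Ccl3 was called, without CM/miR-126Δ/Δ mouse 3 Ccl9, and without CM/miR-126Δ/Δ mouse 4 both Ccl3 and Ccl4, each lower. Since the genes were chosen on this contrast, these counts are a description.

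**Figure D3:**
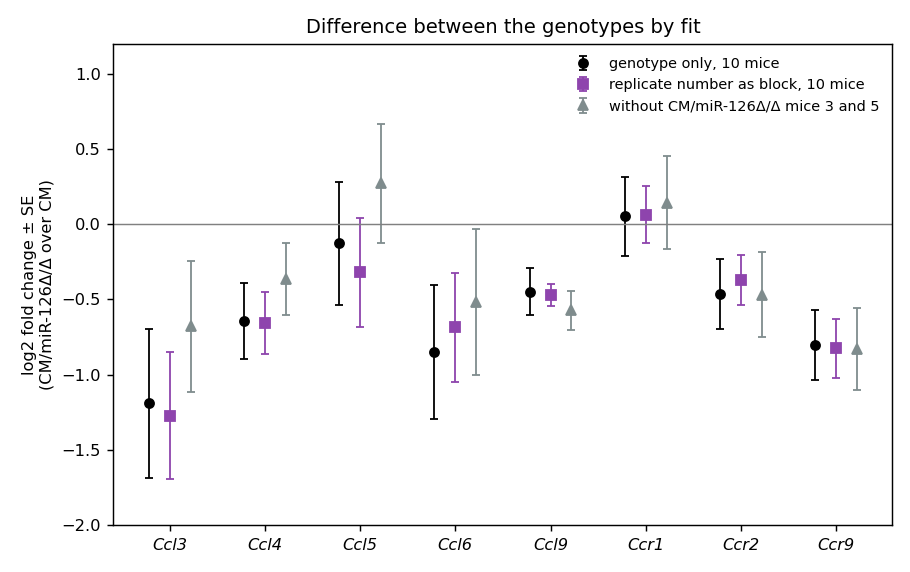
Log2 fold change of CM/miR-126Δ/Δ over CM with its SE for each gene, from the fit with genotype only (circles), with the replicate number as a block (squares) and without CM/miR-126Δ/Δ mice 3 and 5 (triangles). The bars of Ccl9 are short and all below 0. Ccl3 moves from −1.19 to −0.68 without the 2 mice, which had its lowest values.

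Across mice, Ccl3 and Ccl4 varied together within each genotype. After removal of the genotype means, Pearson's r of their log2(CPM + 0.5) was 0.914 over 10 mice (exact permutation within genotype, 14400 relabellings, p = 0.00146, adjusted over 28 pairs of genes p = 0.0408). The relabelling took mice of a genotype as exchangeable and did not use the replicate number. Equally numbered mice deviated together, so the p-values of these correlations may be too small. Spearman's rho was 0.903 (exact permutation, p = 0.00292, adjusted p = 0.0632). Without the 2 mice farthest from the median of Ccl3, r was 0.93, and within the 6 females it was 0.932, while the 4 males were too few. Across 15 alternatives r stayed between 0.877 and 0.954, but its adjusted p stayed under 0.05 in only 6 of them. The other 27 pairs did not pass. When sex means were removed as well, 5 of them passed besides Ccl3 with Ccl4, all among Ccl9 and the receptors. These were Ccl9 with Ccr9 (r = 0.92), Ccr1 with Ccr9 (0.854), Ccr2 with Ccr9 (0.718), Ccl9 with Ccr2 (0.693) and Ccr1 with Ccr2 (0.662). In that setting relabelling still mixed the sexes within a genotype, so its p-values are not exact and these 5 passes are uncertain. With genotype means alone removed, next after Ccl3 with Ccl4 came Ccl9 with Ccr2 (r = 0.639, exact permutation p = 0.00472, adjusted p = 0.0661), Ccl9 with Ccr9 (r = 0.844, p = 0.00937, adjusted p = 0.0836) and Ccl6 with Ccr1 (r = 0.82, p = 0.0119, adjusted p = 0.0836). Spearman's rho was 0.636 for Ccl9 with Ccr2 (exact permutation, p = 0.0345), 0.879 for Ccl9 with Ccr9 (p = 0.00451) and 0.709 for Ccl6 with Ccr1 (p = 0.0488), with adjusted p of 0.255, 0.0632 and 0.255. Without the 2 farthest mice r was 0.53, 0.85 and 0.751, and within the females it was 0.719, 0.889 and 0.481. Ccl3 with Ccl9, the highest ligands, gave r = −0.144 and rho = 0.115 (exact permutation, p = 0.729 and 0.785, adjusted p = 0.927 and 0.995).

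**Figure D4:**
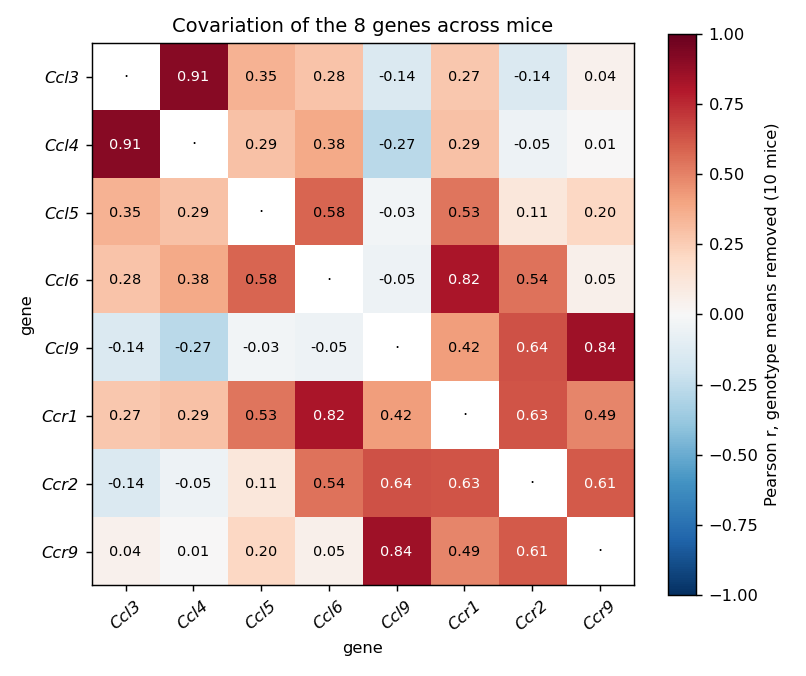
Pearson's r between each pair of the 8 genes over 10 mice, on log2(CPM + 0.5) with genotype means removed, in red for positive and blue for negative values. The darkest squares are Ccl3 with Ccl4 (0.914), Ccl9 with Ccr9 (0.844) and Ccl6 with Ccr1 (0.82).

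The genes most like each of the 8 were sought among 10384 genes with a mean of at least 5 CPM by the same r, as a description. For Ccl3 these were Smim3 (r = 0.976), Gm9958 (0.965) and Zc3h12a (0.964), the last of which encodes an RNase that degrades inflammatory transcripts, and 93 genes reached an r of 0.9. For Ccl4 they were 2810408A11Rik (0.962), the immediate early gene Ier5 (0.958) and B330016D10Rik (0.957), and 52 genes reached 0.9. Ccl6 was most like Lgals3 (0.972), Lyz2 (0.949), which is the lysozyme of granulocytes and macrophages, and Pirb (0.938). Lgals3, a galectin of myeloid cells, was at 4.39 to 23.1 CPM in CM against 4.66 to 15.7 in CM/miR-126Δ/Δ, highest in CM mouse 5 and CM/miR-126Δ/Δ mouse 4 as Ccl6 was. Ccl5 was most like Fcer1a (0.912), the alpha chain of the high-affinity IgE receptor, Acp5 (0.906) and Tmsb4x (0.904). Ccl9 was most like B3gnt2 (0.934), the RNA sensor Tlr7 (0.914) and Plac8 (0.911). Ccr1 was most like Hcst (0.95), Glipr1 (0.923) and Pttg1 (0.921), Ccr2 like Sqor (0.933), Mndal (0.909) and the neutrophil chemokine receptor Cxcr2 (0.906), and Ccr9 like Zdhhc14 (0.913), Atg4a (0.908) and Rpap2 (0.898).

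Because Ier5 stood near Ccl4, 12 immediate early genes (Fos, Fosb, Jun, Junb, Jund, Egr1, Ier2, Ier3, Atf3, Dusp1, Nr4a1 and Zfp36) were summed, a list chosen after these values were seen. Immediate early genes are switched on within minutes by growth factors and by stress such as cell isolation. They summed to 3355, 6926, 1386, 3504 and 4127 CPM in CM mice 1 to 5 and to 2831, 2635, 409, 3748 and 519 CPM in CM/miR-126Δ/Δ mice 1 to 5. The CM mice stood in the same order for this sum, for Ccl3 and for Ccl4, and so did the CM/miR-126Δ/Δ mice for the sum and Ccl4, while for Ccl3 only mice 3 and 5 changed places. Fos was at 224.5 CPM or more in all mice except CM/miR-126Δ/Δ mice 3 and 5, where it was at 17.1 and 19.4 CPM. All 12 genes had a log2 fold change below 0 (52.6% of all genes), with a median of −0.90. Of them 0 were called with genotype only (0 at an unadjusted p under 0.05 in edgeR). With the replicate block 7 were called, beside 0.261% of all genes lower and 0.352% higher. Without CM/miR-126Δ/Δ mice 3 and 5, the log2 fold change of Ccl3 was −0.68 (SE 0.434) and that of Ccl4 −0.36 (SE 0.24). These mice were picked after seeing the data and were the lowest of their genotype for both genes. Leaving them out therefore had to shrink both differences, and the shift says nothing on immediate early genes. Without them Ccl9, highest of its genotype in mouse 3, gave −0.57 (SE 0.129). Ccr9 gave −0.83 (SE 0.273), and r of Ccl3 and Ccl4 was 0.945. The labels gave RNA concentrations of 34.3, 27.9, 26.5, 20.6 and 40.9 ng/µl for CM mice 1 to 5. Those of CM/miR-126Δ/Δ mice 1 to 5 were 21.1, 20.0, 16.1, 29.5 and 18.2 ng/µl. The CM/miR-126Δ/Δ mice stood in the same order for it as for Ccl4, and the CM mice did not. CM/miR-126Δ/Δ mouse 3 also had the highest Rn45s share of counts, 22.6% against 14.8% to 18.6% in the others. The parts of the immediate early state and of RNA concentration in the Ccl3 and Ccl4 values were not tested.

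**Figure D5:**
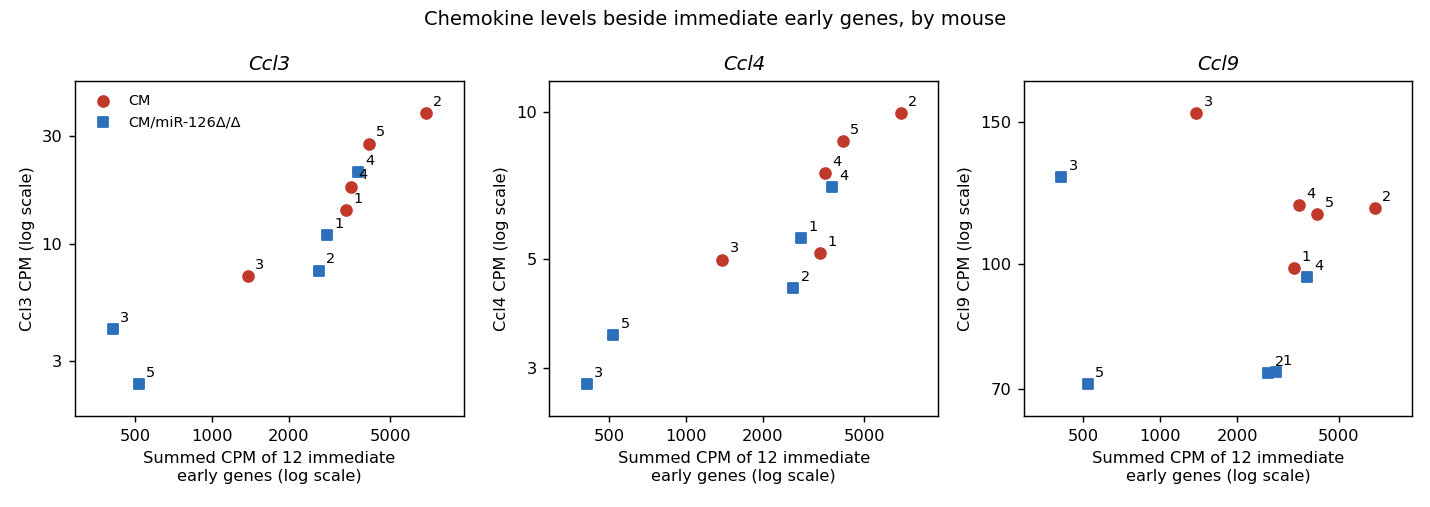
CPM of Ccl3, Ccl4 and Ccl9 against the summed CPM of 12 immediate early genes in each mouse (both axes log scale), red circles for CM and blue squares for CM/miR-126Δ/Δ, numbered by mouse. Ccl3 and Ccl4 climb with the sum from CM/miR-126Δ/Δ mice 3 and 5 to CM mouse 2, and Ccl9 is highest in both mice 3, where the sum is lowest in each genotype.

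The rest of the chemokine system was taken from lists of genes outside the 8. Beside these counts, edgeR with genotype only called 0.096% of all genes lower and 0.192% higher. Of 17 other CC ligands in the table, 7 had 0 counts in every library and 3 reached a mean of 1 CPM. Ccl27a, a skin ligand, was at 3.46 ± 0.437 CPM in CM against 3.11 ± 0.985 in CM/miR-126Δ/Δ, and Ccl25, the ligand of Ccr9, at 1.90 ± 0.441 and 1.81 ± 0.353 CPM (SD, n = 5 each). Ccl24, a ligand of Ccr3 that draws eosinophils, was the only 1 called, lower, at 2.05 ± 2.00 CPM in CM against 0.712 ± 0.223 in CM/miR-126Δ/Δ (mean ± SD, n = 5 each). Its log2 fold change was −1.53 (SE 0.503, edgeR adjusted p = 0.661), CM mouse 5 stood at 5.55 CPM against at most 1.92 in the others, and the call was kept in 4 of 10 fits that left out 1 mouse. It was lost without CM mouse 4 or 5 or CM/miR-126Δ/Δ mouse 1, 2, 3 or 5. Of 13 other CC and atypical receptors, 0 were called, the most abundant being Ccrl2 (9.19 ± 2.10 and 7.83 ± 2.00 CPM) and the eosinophil receptor Ccr3 (6.42 ± 3.80 and 4.11 ± 1.44 CPM). None was called either among 15 CXC, XC and CX3C ligands with a count or among 8 of their receptors. Over these receptors and ligands the unadjusted p was under 0.05 for 0 genes in edgeR and for 1, an atypical or CC receptor, in DESeq2, which also called 0. Cxcr4, which holds stem cells in the marrow, was at 175 ± 16.2 CPM in CM against 158 ± 24.7 in CM/miR-126Δ/Δ (log2 fold change −0.15, SE 0.0982, edgeR adjusted p = 0.765). Its ligand Cxcl12, made mainly by stroma, was at 3.70 ± 1.60 and 2.78 ± 1.21 CPM, and the platelet chemokine Pf4 at 2.80 ± 0.914 and 3.15 ± 1.94 CPM.

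Among 25 genes of chemokine receptor signalling, 0 were called with genotype only. With the replicate block 2 were called, Rgs1 and Rgs2, both lower, beside 0.261% of all genes. With genotype only, 3 had an unadjusted p under 0.05 in edgeR, and DESeq2 called 0. Rgs1 and Rgs2 encode regulators that shorten the signal of G proteins. Rgs1 was at 109, 220.3, 60.7, 76.2 and 97.6 CPM in CM mice and at 74.8, 78.7, 16.8, 99.6 and 22.1 CPM in CM/miR-126Δ/Δ mice, lowest in mice 3 and 5 of the latter as Ccl3 and Ccl4 were. With the block its log2 fold change was −1.11 (SE 0.284, edgeR adjusted p = 0.206), and that of Rgs2 −0.88 (SE 0.184, adjusted p = 0.129). Gnai2, an inhibitory G protein subunit, and Dock2, which drives chemokine-directed movement, were at 525 ± 38.4 and 545 ± 18.6 CPM in CM against 497 ± 12.6 and 586 ± 46.8 in CM/miR-126Δ/Δ.

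Marker lists of other cells were counted the same way, each with genotype only and with the block. Of all genes, edgeR called 0.096% lower with genotype only and 0.261% lower with the block, and 52.6% had a log2 fold change below 0. Of 7 dendritic cell markers 2 were called, lower, in both fits: Siglech at 5.66 ± 2.55 and 2.99 ± 0.798 CPM, and Itgax at 8.78 ± 1.66 and 5.82 ± 1.30 CPM (edgeR adjusted p = 0.637 and 0.623). DESeq2 called Siglech but not Itgax. Of 6 lymphoid priming genes 2 were called, lower, in both fits: Il7r, the receptor of interleukin 7, at 17.9 ± 6.53 and 9.25 ± 3.62 CPM, and Rag2, a recombinase of antigen receptor genes, at 5.46 ± 0.841 and 3.38 ± 1.21 CPM (edgeR adjusted p = 0.626 and 0.663). Siglech lost its call without CM mouse 3 or CM/miR-126Δ/Δ mouse 2 or 5, and Il7r without CM mouse 2 or CM/miR-126Δ/Δ mouse 1. Itgax lost it without CM mouse 2, 4 or 5 or CM/miR-126Δ/Δ mouse 1, 2 or 5, and Rag2 without these or CM mouse 3. All 7 dendritic cell markers had a log2 fold change below 0 (median −0.32), as did 5 of the 6 lymphoid priming genes (median −0.46). Summed over the list, dendritic cell markers were at 435.5 to 601.8 CPM in CM against 438.5 to 635.8 in CM/miR-126Δ/Δ, and lymphoid priming genes at 655 to 1169 and 738.5 to 1162 CPM. The first sum was mostly Flt3 (426 ± 56.6 and 411 ± 59.2 CPM), which LSK cells also express, and Irf8 (97.1 ± 16.7 and 81.3 ± 32.2 CPM), and the second mostly Dntt (354 ± 92.4 and 302.3 ± 80.1 CPM) and Notch1 (276 ± 63.8 and 290 ± 52.2 CPM). Ccr9 is also carried by plasmacytoid dendritic cells, marked by Siglech, and by early lymphoid progenitors, and the part of these cells in the Ccr9 values was not tested. Of the 10 monocyte and macrophage markers 0 were called, with sums of 509.7 to 885.5 CPM in CM against 437.6 to 986.5 in CM/miR-126Δ/Δ, highest in mouse 3 of each genotype, where Ccl9 was also highest; their part in the Ccl9 values was not tested. The LSK, granulocyte-monocyte, neutrophil, T and NK, B, eosinophil, basophil and mast cell, erythroid and megakaryocyte lists held 0 called genes in either fit, and 0 with DESeq2. The unadjusted p of edgeR was under 0.05 for 3 LSK genes, all higher in CM/miR-126Δ/Δ (Mecom, Hlf and Meis1). It was also under 0.05 for 1 monocyte and macrophage gene (Fcgr1, lower) and for 0 genes of the other lists without calls. Of the 9 LSK genes, 7 had a log2 fold change above 0 and 2 below.

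The 2 most abundant genes of the lists not yet described were as follows, in CM and then in CM/miR-126Δ/Δ (mean ± SD, n = 5 each). In LSK cells Kit stood at 859 ± 68.5 and 929 ± 128 CPM and Cd34 at 943 ± 52.7 and 874 ± 64.5 CPM. The granule genes Mpo (2160 ± 535 and 2184 ± 915 CPM) and Ctsg (273 ± 58.9 and 271 ± 86.0 CPM) led the granulocyte-monocyte list. S100a9 (12.99 ± 16.86 and 24.7 ± 47.3 CPM) and Ngp (10.3 ± 15.3 and 17.2 ± 34.4 CPM) led the neutrophil list, with an SD above the mean in both genotypes. F13a1 (277 ± 57.1 and 291 ± 129 CPM) and Lyz2 (138 ± 41.8 and 124 ± 36.3 CPM) led the monocyte and macrophage list. Nkg7 (48.6 ± 11.8 and 47.7 ± 5.93 CPM) and Gzmb (1.41 ± 0.461 and 2.01 ± 1.27 CPM) led the T and NK list, and Cd79b (24.6 ± 2.03 and 22.6 ± 1.40 CPM) and Ebf1 (2.99 ± 1.31 and 1.90 ± 1.31 CPM) the B list. Cpa3 (122.5 ± 29.8 and 106 ± 22.2 CPM) and Fcer1a (34.9 ± 5.76 and 29.6 ± 10.8 CPM) led the eosinophil, basophil and mast cell list. Car1 (27.6 ± 26.3 and 44.4 ± 20.7 CPM) and Klf1 (10.5 ± 7.30 and 11.1 ± 3.88 CPM) led the erythroid list, and Itga2b (173 ± 26.0 and 144 ± 27.8 CPM) and Gp9 (4.93 ± 0.837 and 5.12 ± 1.41 CPM) the megakaryocyte list.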

How the data were processed

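RNA of LSK cells from 10 mice, 1 library each, was read as single ends of 51 bases after ribosomal RNA depletion. The authors trimmed reads with Trimmomatic and FASTP, aligned them to mm10 with Tophat and used HTSeq to count them on RefSeq genes. The deposited counts are whole reads per gene without normalization. The authors' second table, which divides each count by a constant per library, was not used.

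Genes with at least 1 count (18747 of 25078) were fitted with edgeR 4.0.16 in R 4.3.3 (TMM factors, quasi-likelihood F-test in the form of edgeR 3, genotype as the only term, Benjamini-Hochberg adjustment). For RPKM, TMM-scaled CPM were divided by exon length in kilobases, with 0.01 added before logs, and correlations used log2(CPM + 0.5). The fit was tested on simulated data. Seed sites were sought by symbol in GENCODE M1 transcripts, and promoters came from RefSeq (GRCm38.p6).

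Groups and replicate numbers came from the labels. Equally numbered mice of the 2 genotypes deviated together (r of 0.147 to 0.468 over 12275 genes, against a mean of −0.08 for other pairings, so every pair was over 0.1, although a CM mouse matched best with its own number in only 3 of 5 cases), and the numbers were therefore also used as a block. What the numbers stand for is not given in the sources used here, but Xist and Y-linked counts put females in numbers 1 to 3 and males in 4 and 5 of both genotypes. Libraries of a genotype differed by 9.52 to 61.7 chi-square per degree of freedom, so none was a duplicate. Whether mice were independent beyond their labels is not stated, and p-values measure the spread between these samples. Counts carry no molecular identifiers, so detection limits cover counting error only. Totals of 23649233 to 33202086 counts limit precision for Ccl5, Ccr1 and Ccr9, at 16 to 105 counts per library.

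The members and lists were chosen with earlier results of these data known. Named were the 8 members, from each list the 2 most abundant genes and every gene called in either fit, and the 3 genes most correlated with each member. Outside this rule, Ly6a, Cd3e, Mecom, Hlf, Meis1, Fcgr1, Mir126a, Rn45s, Xist, E230016K23Rik and the immediate early genes were also named. Alternatives were RLE factors, DESeq2 1.42.0, other filters, edgeR 4 quasi-likelihood, robust dispersions, the block, sex as a covariate, other call rules, prior counts, pseudocounts and centring, and each mouse left out. Leaving out CM/miR-126Δ/Δ mice 3 and 5 together was chosen after seeing the data.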

Additional observations from a re-analysis of the deposited data

How the results depend on the processing

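The number of the 8 genes called, 0 with genotype only, was 1 with the replicate block (Ccl4), 1 with no requirement on RPKM (Ccr9), 0 to 2 when 1 mouse was left out and 2, 1, 0, 2 and 0 when pair 1, 2, 3, 4 or 5 was left out under the block. Over all genes, 54 calls became 115 with the replicate block, 111 with no requirement on RPKM, 2 at an adjusted p under 0.05, 33 to 128 without 1 mouse and 128, 115, 123, 155 and 85 without pair 1, 2, 3, 4 or 5 under the block. The block changed no other call among the 8 genes and added Rgs1 and Rgs2 in the lists of the chemokine system and cell markers and 7 of the 12 immediate early genes. The number of gene pairs correlated within genotype, 1, was 0 without TMM factors. After removal of the sex means, where relabelling still mixed the sexes, it was 6. It was 0 in the 8 libraries without CM/miR-126Δ/Δ mice 3 and 5 (chosen after seeing the data) and 0 to 3 without 1 mouse, where fewer mice also allow fewer relabellings. For the other changes the cause was not tested. Without division by exon length, 3 steps in the order of levels turned round: Ccl3 minus Ccr2 was −1.63, Ccl4 minus Ccl6 −0.396 and Ccl5 minus Ccr1 −0.829 on the log2 scale, since the longer transcript collects more reads. In all 198 recomputed log2 fold changes of the 8 genes the shift was under 1 SD between mice. Leaving out 1 of 5 mice can hardly move a mean by that much, so this limit was loose and is no measure of robustness. Ccl5 ranged from −0.69 to 0.05 and Ccr1 from −0.15 to 0.20 without 1 mouse. Ccr2 was −0.21 without CM mouse 3, and Ccl5 was 0.27 without CM/miR-126Δ/Δ mice 3 and 5. At 16 to 105 counts per library, depth limits Ccl5, Ccr1 and Ccr9.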
